A study of Mus musculus with 58 samples.

Results

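Ribosome biogenesis factors are the nucleolar and nuclear proteins that make ribosomes without remaining in them. A fixed list of 56 genes for such factors was followed through the SLAM-seq and Quant-seq libraries. The genes were listed by name, from what their proteins are known to do, with earlier results of these data known. Member counts set beside shares of all genes are therefore not independent of these data. Rows were found for 52 of them, among 20177 genes in all. Bysl, Bop1, Noc2l and Gnl3 were not analysed here. The 52 were split by role into 3 box C/D snoRNP proteins, 2 box H/ACA snoRNP proteins, 3 genes of RNA polymerase I transcription, 4 nucleolar proteins with several roles (multifunctional nucleolar proteins), 25 small-subunit factors and 15 large-subunit factors.

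Ribosome production starts in the nucleolus, where RNA polymerase I makes a long precursor rRNA. Box C/D snoRNPs guide its methylation and box H/ACA snoRNPs its pseudouridylation, while the small-subunit processome and a separate set of large-subunit factors fold, cut and export the parts of the future ribosome. The mRNAs of all these proteins come from RNA polymerase II, and mouse embryonic stem (mES) cells, which divide quickly, express them strongly.

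The study asked what happens to transcription when the enzymes that deposit H3K4me3 lose a shared subunit. E14 mES cells (129/Ola background) carried a degron tag either on DPY30, degraded on auxin (DPY30–mAID), or on RBBP5, degraded on dTAG-13 (RBBP5–FKBP). In SLAM-seq, 100 µM 4SU given for 60 min marks newly made RNA, whose reads then carry T>C changes. DPY30–mAID and RBBP5–FKBP cells were sampled at 0, 2, 8 and 24 h of ligand with 3 libraries per time point. DPY30–mAID cells that also lacked Kdm5a and Kdm5b (dKO), the demethylases of this mark, were sampled at 0, 2, 4, 8, 24 and 48 h of auxin with 2 libraries per time point. Every dKO library, at 0 h too, carried both knockouts and the DPY30 tag. In Quant-seq, DPY30–mAID cells were differentiated with 1 µM retinoic acid (RA) in DMSO for 8 h or 1, 2, 4 or 6 days, or in auxin for the same times, with 2 libraries per group and a 0 h group in DMSO only. LIF was withdrawn when RA was added, so RA and the loss of LIF cannot be told apart in comparisons with 0 h. RBBP5–FKBP and knockout cells were single-cell sorted. DPY30–mAID clones were transfected with OsTIR1 and selected with hygromycin, with no later single-cell step stated. The labels do not say which dKO clone a library came from. The SLAM-seq libraries of a group are described as biological replicates in the study, while the labels name no separate cultures for either assay. The p-values measure the spread between these libraries, which for Quant-seq may be technical.

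There were 58 libraries in 25 groups. They held 2013350 to 2806821 reads in DPY30–mAID, 1721185 to 2852331 in RBBP5–FKBP, 5931269 to 7792404 in dKO and 1264241 to 2543632 in Quant-seq. The share of reads with T>C changes was 5.51 to 16.1%, 4.85 to 10.1% and 2.04 to 5.27% in the SLAM-seq lines, against 0.303 to 0.388% in Quant-seq, where no 4SU was given. The third auxin library of DPY30–mAID at 8 h stood apart with 5.51%, beside 13.0% and 9.82% in the other libraries of that group. Both DMSO libraries of RA day 6 were identical and were counted as 1. Kdm5b had 109 to 151 CPM (counts scaled to 1000000 reads of the library) in dKO cells and 389 to 946 CPM in the other SLAM-seq libraries, and Kdm5a had 26.0 to 40.7 CPM in dKO cells and 61.1 to 144 in the others. The degrons act on protein, so Dpy30 and Rbbp5 mRNA check nothing. Summed naive pluripotency markers (8 genes) were at 5938 to 9654 CPM in all SLAM-seq libraries, with none at 0. Summed fibroblast markers (4 genes) were at 15.4 to 26.8 CPM in dKO cells and 0.351 to 9.22 in the other SLAM-seq lines.

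Before ligand, the 52 genes together took 1.56% of the T>C reads in each of the 3 DPY30–mAID libraries. New transcripts were measured as T>C CPM, the T>C reads scaled to 1000000 of all reads in the library, which keeps a change shared by all genes visible. Summed over the members this gave 2522, 2395 and 2517 T>C CPM in DPY30–mAID, 1441, 1478 and 1398 in RBBP5–FKBP, and 633 and 731 in dKO cells at 0 h. The median member had T>C changes in 17.2% of its reads at 0 h (48 genes with enough reads), near the median of all genes, 18.5%, and above the cytosolic ribosomal protein genes, 5.24%. The large-subunit factors had a median of 19.4%, the small-subunit factors 17.3% and the box C/D proteins 13.4%. Rrs1, which acts early in large-subunit assembly, was the most labelled member at 48.0% ± 4.95 (SD, n = 3). Ddx10 (34.5%), a helicase of the small-subunit processome, and Mak16 (34.2%), a large-subunit factor, followed. Reads that map to more than 1 place made up 33.1% of Ddx10 and 20.5% of Rrs1 reads. Rrp12, a nuclear export factor, was the least labelled at 7.68%. The share depends on how many T positions a 3′ end holds as well as on turnover, and the median share of T positions converted was 1.22% in the members and 1.18% in all genes.

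The genes were next compared by the sequence around their start sites. Windows from 250 bases before to 50 after the start were found in RefSeq (GRCm38.p6) for 41 of the 52 genes. CACGTG, the E-box bound by MYC-type factors, was in the window of 10 of 41 (24.4%), against 13% of the 5081 genes tested in DPY30–mAID T>C reads and 8.09% of all 27025 genes. Of these 10 genes, 7 were among 20 small-subunit factors, 3 among 12 large-subunit factors and 0 among the 9 other members. CCGGAAG, the ETS-type motif, searched with its reverse complement CTTCCGG, was in 15 of 41 (36.6%), against 24.9% and 9.93%. CCAAT was in 41.5% of members (44.2% and 41.1%), GCGCATGC in 2.44% (7.38% and 3.05%) and TATAAA in 7.32% (7.77% and 15.7%), each searched on both strands. The stretches below are shown because they belong to members whose values are followed later. Capitals mark the motif, and each is written 5′ to 3′ on the strand of its gene. Utp4 lies at chr8:106893643-106893672 (+) for the E-box and chr8:106893586-106893615 (+) for the ETS-type motif. Utp20 is at chr10:88826765-88826794 (−), Wdr43 at chr17:71616220-71616249 (+), Nop2 at chr6:125131811-125131840 (+), Nip7 at chr8:107056763-107056792 (+) and Nolc1 at chr19:46075822-46075851 (+).
Utp4, E-box: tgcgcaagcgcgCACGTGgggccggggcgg
Utp4, ETS-type: ttgcctgcgcaCTTCCGGcctcgcgccgcg
Utp20, E-box: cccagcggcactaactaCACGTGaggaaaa
Wdr43, E-box: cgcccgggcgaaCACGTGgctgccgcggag
Nop2, E-box: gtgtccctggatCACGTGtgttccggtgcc
Nip7, ETS-type: gctttcggtccCCGGAAGtccgccacggta
Nolc1, ETS-type: cgcgtgtgggaCCGGAAGcaacttctagat
The Utp4, Utp20 and Wdr43 E-boxes begin 15, 37 and 17 bases after the annotated start and that of Nop2 60 bases before it. A match describes the letters and is not a bound site.

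T>C CPM of many members was lower after 8 h of DPY30 loss. The T>C share of whole libraries was lower too, at 13.0%, 9.82% and 5.51% beside 16.1%, 15.3% and 16.1% at 0 h. The members' sum was 2262, 2288 and 2196 T>C CPM at 2 h and 1723, 1168 and 636 at 8 h. Every 2 h library already lay below every 0 h library, and every 8 h library below every 2 h library, with a wide spread among the 3 at 8 h. The T>C share of all reads fell in the same order, with 14.9%, 14.4% and 14.9% at 2 h. Members held 1.52%, 1.59% and 1.48% of T>C reads at 2 h, around the 1.56% of 0 h. As these are bulk RNA samples, fewer cells of a type and less RNA per cell cannot be told apart. At 2 h, edgeR's quasi-likelihood test with Benjamini-Hochberg adjustment called 0 of 50 tested members (0.0% of all genes). DESeq2 also called 0, and 2 were lower at an unadjusted p under 0.05. Here and below, the share of all genes under an unadjusted p alone was not counted, so such counts show no excess of members. At 8 h, 18 of 50 were called lower (adjusted p under 0.05 and log2 fold change under −1), against 14.5% of all 6317 genes tested, and 0 higher (0.158%). The median log2 fold change was −1.09 over the members and −0.71 over all genes. In 30 members every 8 h library was below every 0 h library (28.5% of all genes). Members also lost share among T>C reads, from 1.56% to 1.32%, 1.19% and 1.15%. The third library stood apart here too: the median change of the members was −0.47, −0.93 and −1.95 in the 3 libraries and that of all genes −0.10, −0.50 and −1.45. Without that library 9 members were called, without the first 32, and without any other library 12 to 14. Here and below, counts with a library left out are given without the share of all genes and show only how stable the calls are. Summed naive pluripotency markers in total reads were at 8781 to 9654 CPM at 0 h and 7392 to 7819 at 8 h, and their part in the result was not tested. Scaled to T>C reads instead of all reads, 3 members were called, with a median of −0.42 against −0.09 in all genes. Counts called under this scaling, here and below, are given without the share of all genes and show no excess of members.

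**Figure D1:**
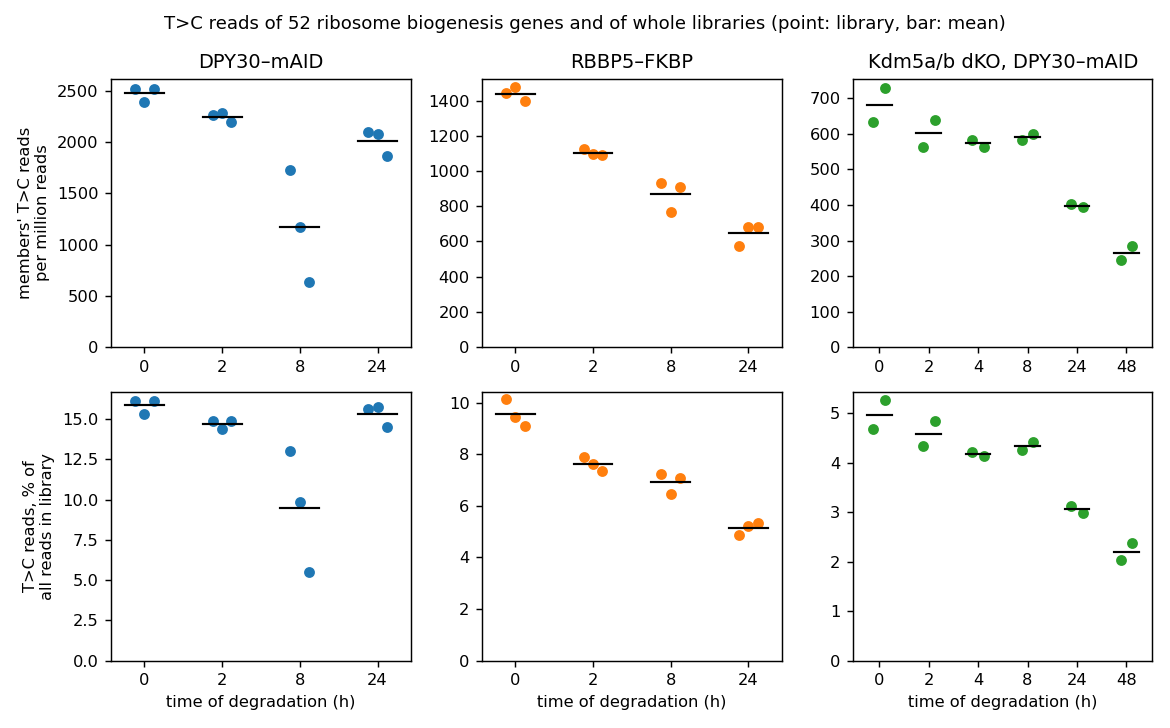
Summed T>C CPM of the 52 members in each SLAM-seq library (points) by hours of ligand, and the share of all reads that carried T>C changes in the same libraries, for DPY30–mAID, RBBP5–FKBP and dKO cells. In DPY30–mAID the sum was 1723, 1168 and 636 T>C CPM at 8 h and was at 2098, 2083 and 1862 at 24 h, whereas in RBBP5–FKBP and dKO cells the lowest values were at the last time point.

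Of the 4 classes outside the subunit factors, 3 had all of their members called. All 3 box C/D proteins fell at 8 h, with a summed level of 319, 295 and 322 T>C CPM at 0 h and 190, 150 and 98 at 8 h. Fibrillarin (Fbl), the methyltransferase of these particles, changed by −1.56 and the core protein Nop56 by −1.24, but their reads were largely multi-mapping (99.3% and 82.3%), which makes both values uncertain. Nop58, the other core protein (chr1:59684971-59719044, +), had 96.7, 108 and 168 T>C CPM at 0 h and 82.2, 73.6 and 42.8 at 8 h. The groups did not overlap, and the log2 fold change was −1.01 (SE 0.30, adjusted p = 0.0162). Dyskerin (Dkc1), the pseudouridine synthase of box H/ACA particles, had 68.4, 49.5 and 57.2 T>C CPM at 0 h and 39.2, 23.7 and 23.2 at 8 h. It was lower in every treated library (log2 fold change −1.12, SE 0.33, adjusted p = 0.0164), as was its partner Gar1 (−1.09, adjusted p = 0.0412).

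All 4 multifunctional nucleolar proteins fell. Nucleolin (Ncl, chr1:86344719-86359400, −), which binds rRNA precursors and had the most T>C reads of the members in this line at 0 h, had 432, 385 and 443 T>C CPM at 0 h. It had 272, 181 and 76.1 at 8 h, below every 0 h library (−1.35, SE 0.29, adjusted p = 0.00142). The snoRNP chaperone Nolc1 went from 46.4, 54.5 and 68.1 to 29.8, 17.4 and 3.65 T>C CPM (−1.83, SE 0.40, adjusted p = 0.00169). The third of its 8 h libraries was far below the others, with 8 T>C reads of 447. Without 4SU, in Quant-seq, 59 of 4590 Nolc1 reads (1.29%) carried T>C changes, so its lowest values lie near that background. In the first dKO library at 48 h it had 14 of 996. Nucleophosmin (Npm1, −1.10) and the helicase Ddx21 (−1.19) also fell, but 65.2% of Npm1 reads were multi-mapping, so every Npm1 value here is uncertain. Of the RNA polymerase I group only Tcof1, the treacle protein that works with the polymerase, was called, from 57.1, 57.0 and 48.5 to 40.5, 24.7 and 7.75 T>C CPM (−1.26, SE 0.42, adjusted p = 0.0315). The polymerase subunits Polr1a (−0.78, adjusted p = 0.306) and Polr1b (−1.69, adjusted p = 0.0572) did not pass.

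Beside the 14.5% of all genes called, the subunit factors were called as follows. Of 25 small-subunit factors 3 fell (Utp4, Nol10 and Pwp2), with a median of −0.92, a share below that of all genes, and of 13 large-subunit factors 5 fell (Rrs1, Rrp1b, Mak16, Nip7 and Nop16), with a median of −1.10. The difference between these classes was not tested. Rrs1 (chr1:9545408-9547455, +) had 119, 95.1 and 102 T>C CPM at 0 h and 45.2, 32.4 and 11.4 at 8 h. This was the largest called change among the members (−1.92, SE 0.34, adjusted p = 0.000122), and the value was between −1.53 and −2.37 without any single library, but 20.5% of Rrs1 reads were multi-mapping. Rrp1b (chr17:32036100-32062865, +), a nucleolar protein of late large-subunit steps, had 49.8, 58.4 and 61.6 T>C CPM at 0 h and 24.7, 15.5 and 14.6 at 8 h, well apart (−1.73, SE 0.36, adjusted p = 0.000958). Nip7, an exosome-linked assembly factor, had 65.9, 75.9 and 68.1 at 0 h and 56.2, 30.0 and 8.20 at 8 h (−1.25, SE 0.36, adjusted p = 0.0133). Nip7 was not called without 0 h library 2 or without 8 h library 2 or 3. In the small subunit, Utp4, a scaffold of the early processome, had 41.5, 67.3 and 51.8 at 0 h and 43.0, 30.5 and 9.11 at 8 h. These groups overlapped, and the log2 fold change was −1.06 (SE 0.37, adjusted p = 0.041). Wdr43, of the same early complex, was lower in value but not called (−0.87, SE 0.32, adjusted p = 0.0532), from 88.9, 51.3 and 63.4 to 57.5, 35.8 and 26.0 T>C CPM.

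**Figure D2:**
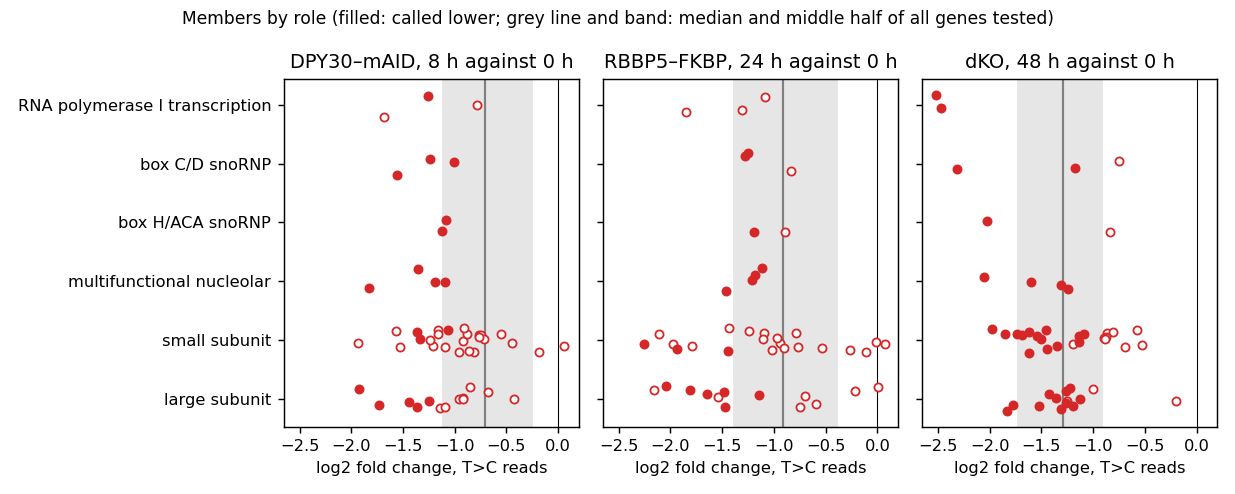
Log2 fold change of T>C reads for each tested member by role, in DPY30–mAID at 8 h, RBBP5–FKBP at 24 h and dKO at 48 h against 0 h; filled points passed the test and the grey line and band give the median and interquartile range of all genes tested. The members lie around −1.09, −1.17 and −1.29, with the medians of all genes at −0.71, −0.91 and −1.29.

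A list of other ribosome biogenesis factors, not among the 56, showed where the members stand in their pathway, beside 14.5% of all genes called lower and a median of −0.71. It too was chosen with earlier results of these data known. At 8 h of auxin in the DPY30–mAID line 21 of 83 tested fell (median −0.86). The lowest were Nifk (−2.00), Rpf2 (−1.72), which acts with Rrs1, and Ppan (−1.67), and the highest were Wdr74 (0.13), Wdr18 (0.02) and Efl1 (−0.05). Of 68 cytosolic ribosomal protein genes 25 fell, with a median of −0.88. Among the 37 members with under 10% multi-mapping reads 11 fell, with a median of −1.06.

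At 24 h of auxin the members' sum in DPY30–mAID cells was closer to 0 h. It was 2098, 2083 and 1862 T>C CPM, above every 8 h library and below every 0 h library, and their share of T>C reads was 1.34%, 1.32% and 1.28%. Against 0 h, 3 of 50 members fell (2.75% of all genes): Ncl (−1.14), Tcof1 (−1.67) and the small-subunit factor Noc4l (−1.90). DESeq2 called 6, and scaling to T>C reads called 6, beside 3 at 8 h under that scaling. Leaving out a single library left 0 to 2 of these calls, with 0 without the first or second 0 h library or the third 24 h library, and 1 without the third 0 h or the second 24 h library. The median was −0.14 in the members and in all genes. Ncl stood at 220, 187 and 171 T>C CPM, still below all 0 h libraries, and Tcof1 at 30.1, 16.0 and 5.65, overlapping its 8 h values.

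From 8 h to 24 h, 14 of 50 members rose (16.1% of all genes). The median was 0.89 over the members and 0.56 over all genes. They were Fbl (1.07) and Nop58 (1.22) of the box C/D proteins, Ddx21 (1.27), 6 small-subunit factors from Rrp9 (1.14) through Nol10 (1.26), Wdr43 (1.28), Nol11 (1.41) and Utp18 (1.96) to Ddx52 (2.25), and 5 large-subunit factors from Nop16 (1.25) through Mak16 (1.33), Mrto4 and Rrs1 (1.82) to Nip7 (2.13). Nip7 reached 124, 136 and 130 T>C CPM at 24 h, above its 0 h libraries as well, although the change against 0 h was not called (0.88, SE 0.35, adjusted p = 0.142). Nop58 stood at 141, 154 and 140 and Wdr43 at 99.9, 74.7 and 98.9, within or near their 0 h range. Ddx52 and Utp18 had at most 6.82 T>C CPM in any 8 h library and 0 in the third, so their size is poorly known. The count was 5 without the third 8 h library, 28 without the first, and 9 without the second 8 h or the first or second 24 h library. It was 3 with scaling to T>C reads, a count given without the share of all genes.

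In RBBP5–FKBP cells the members' sum was lower at each later time. It was 1122, 1098 and 1089 T>C CPM at 2 h, 934, 768 and 908 at 8 h, and 577, 682 and 683 at 24 h, with no overlap between successive time points. The T>C share of all reads also fell without overlap, from 9.10 to 10.1% at 0 h to 7.36 to 7.91% at 2 h. It was 6.47 to 7.25% at 8 h and 4.85 to 5.33% at 24 h. At 2 h, 0 of 46 tested members were called (0.147% of all 4761 genes), while DESeq2 called 1 and 7 were lower at an unadjusted p under 0.05. At 8 h, 4 fell (5.61% of all genes) and at 24 h 16 fell (22.9%), with a median of −1.17 against −0.91 in all genes. The 4 at 8 h were Ncl (−1.02), Utp4 (−1.21), Rrp1b (−1.87) and the small-subunit assembly factor Ltv1. Ltv1 rests on 1 or 2 reads in each 8 h library, so its size is poorly known. In 25 members every 24 h library was below every 0 h library (38.6% of all genes). With scaling to T>C reads 1 member was called at each of these times, given without the share of all genes. The 24 h median was then −0.45 against −0.20.

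By role, beside 22.9% of all genes with a median of −0.91, 6 of 13 large-subunit factors fell at 24 h (median −1.47), 3 of 21 small-subunit factors (median −1.02), a share below that of all genes, 2 of 3 box C/D proteins, 1 of 2 box H/ACA proteins, all 4 multifunctional proteins and 0 of 3 RNA polymerase I genes. Rrp1b had 55.4, 39.3 and 42.1 T>C CPM at 0 h, 13.2, 12.7 and 12.7 at 8 h and 11.5, 11.6 and 10.6 at 24 h. It had thus reached its low level at 8 h (−2.04 at 24 h, SE 0.35, adjusted p = 1.08e-05). Utp4 had 58.6, 72.9 and 55.6 at 0 h, 38.0, 29.3 and 16.4 at 8 h, and 21.3, 27.5 and 21.7 at 24 h. Both later times lay below 0 h (−1.44 at 24 h, SE 0.29, adjusted p = 0.000101). Rrs1 was called at 24 h only, although its 8 h libraries already lay below 0 h, with 61.0, 71.2 and 92.6 at 0 h, 52.4, 45.3 and 49.8 at 8 h and 29.2, 28.4 and 24.6 at 24 h (−1.48, SE 0.25, adjusted p = 9.17e-06). Ncl had 143, 175 and 210 at 0 h, 106, 68.0 and 96.3 at 8 h, and 63.8, 72.7 and 96.9 at 24 h (−1.21, SE 0.21, adjusted p = 7.54e-06). Nop58 followed with 69.7, 68.7 and 88.2 at 0 h, 60.5, 34.8 and 47.0 at 8 h, and 20.4, 27.0 and 50.1 at 24 h (−1.25, SE 0.27, adjusted p = 0.000289). The processome factors Utp3 (−2.26) and Heatr1 (−1.94), the rRNA methyltransferase Nop2 (−1.81) and the kinase Nol9 (−1.64) also fell at 24 h.

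**Figure D3:**
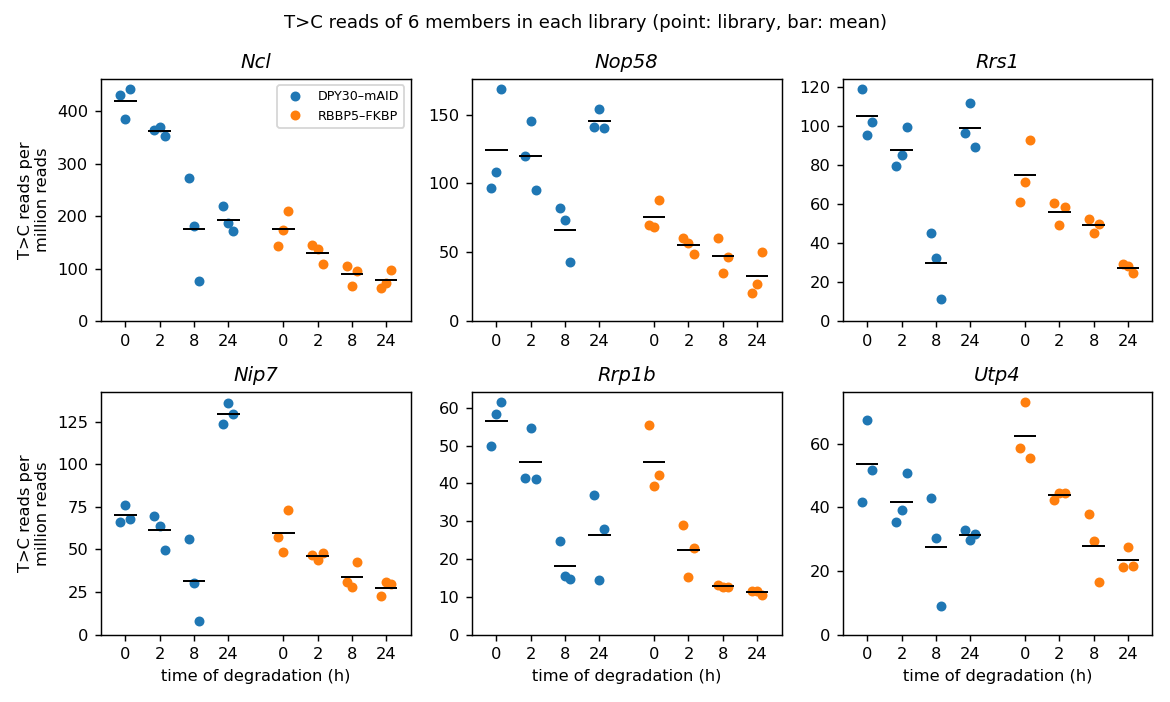
T>C CPM of Ncl, Nop58, Rrs1, Nip7, Rrp1b and Utp4 in each library (points) of DPY30–mAID and RBBP5–FKBP cells by hours of ligand. In DPY30–mAID, Nip7 reached 124 to 136 T>C CPM at 24 h after 8.20 to 56.2 at 8 h, whereas in RBBP5–FKBP it was at 22.6 to 30.7 at 24 h.

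In dKO cells edgeR called no member at 2, 4 or 8 h of auxin. Their sum was 563 and 640 T>C CPM at 2 h, 584 and 564 at 4 h, and 582 and 599 at 8 h, with medians of −0.22, −0.24 and −0.14. In single libraries without TMM factors the median of all genes was −0.18 and −0.01, −0.21 and −0.23, and −0.17 and −0.12. That of the members was −0.24 and −0.09, −0.14 and −0.22, and −0.17 and −0.03. Of 48 tested, 0 were called at each time (0.0%, 0.201% and 0.704% of all 5965 genes), also with DESeq2. At an unadjusted p under 0.05, 8, 7 and 4 were lower at 2, 4 and 8 h. At 24 h the sum was 402 and 394 T>C CPM and 14 members fell (27.5% of all genes), 22 without the first 0 h library and 8 without the second. At 48 h it was 246 and 284 and 34 fell (64.4% of all genes), all 48 had a log2 fold change below 0, and the median was −1.29 in members and in all genes. With scaling to T>C reads 1 fell and 1 rose at 24 h and 2 fell at 48 h, counts given without the share of all genes. The 48 h median was then −0.11 in members and in all genes. The median member at 48 h was thus the same as the median gene.

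At 48 h, 14 of 23 small-subunit and 11 of 14 large-subunit factors fell, with medians of −1.20 and −1.26, beside 64.4% and −1.29 for all genes. The small-subunit share was below that of all genes. Nop56 had 20.6 and 17.7 T>C CPM at 0 h, 6.18 and 6.36 at 24 h and 4.27 and 3.86 at 48 h (−2.32, SE 0.25, adjusted p = 3e-13), values that are uncertain because 82.3% of its reads were multi-mapping. Tcof1 had 11.3 and 10.1 at 0 h and 3.20 and 0.891 at 48 h (−2.47, SE 0.34, adjusted p = 1.08e-09), and Polr1a, the largest RNA polymerase I subunit, 2.65 and 3.98 at 0 h and 0.762 and 0.446 at 48 h (−2.52). Ncl, with 45.0 and 50.8 at 0 h and 22.7 and 20.4 at 48 h, changed by −1.24. Rrs1, with 16.3 and 19.6 at 0 h and 7.62 and 8.32 at 48 h, changed by −1.26. None of these groups overlapped.

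The auxin effects in dKO and DPY30–mAID cells were compared by an interaction term, dKO minus DPY30–mAID. At 2 h, 0 of 51 members were called by edgeR or DESeq2 or passed an unadjusted p under 0.05 (0.0% of all genes called). At 8 h, 0 of 51 members passed by edgeR (0.304% of all 6901 genes were higher), 18 were higher at an unadjusted p under 0.05 and DESeq2 called 1 higher. All genes were not counted at that unadjusted p. The median difference was 0.97 in members and 0.53 in all genes. Without the first 8 h library of DPY30–mAID cells 16 members were called higher, a count given without the share of all genes. In that library the median change of all genes was −0.10, beside −0.50 and −1.45 in the others. At 24 h, 1 member was lower in dKO cells (2.38% of all genes). This was Nip7, with 124, 136 and 130 T>C CPM in DPY30–mAID and 13.7 and 14.8 in dKO cells at 24 h, from 65.9, 75.9 and 68.1 and from 26.5 and 26.9 at 0 h. The difference of the changes was −1.83 (SE 0.45, adjusted p = 0.0211), beside medians of −0.68 in all genes and −0.52 in members. That call was lost without the second 0 h or either 24 h library of dKO cells.

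Across the 3 lines, 12 members fell in DPY30–mAID at 8 h, in RBBP5–FKBP at 24 h and in dKO at 48 h. They were Ncl, Npm1, Nolc1 and Ddx21, the snoRNP proteins Nop56, Nop58 and Dkc1, the large-subunit factors Rrs1, Rrp1b, Nip7 and Mak16, and Utp4 of the small subunit. Among them Nop56 (82.3%) and Npm1 (65.2%) are uncertain for their multi-mapping reads. Rrs1 (20.5%), Nip7 (20.1%) and Dkc1 (11.1%) also had 10% or more such reads. They were 12 of the 44 members tested in all 3 comparisons (27.3%), beside 8.14% of all 4324 genes tested in all 3. Whether these shares differ was not tested. Ncl, Rrp1b and Utp4 were called at 8 h in both single-degron lines, 3 of 46 members (6.52%) beside 3.0% of all 4674 genes tested in both.

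Total reads count old and new mRNA. The members took 1.17 to 1.57%, 1.24 to 1.51% and 1.47 to 1.70% of all reads over the libraries of DPY30–mAID, RBBP5–FKBP and dKO cells. In DPY30–mAID cells 0 of 51 members were called at 2 h (0.0% of all genes) by edgeR or DESeq2, with 3 lower at an unadjusted p under 0.05, and at 8 h 1 fell (1.9% of all 9848 genes). This was Rrs1, from 222, 217 and 218 CPM at 0 h to 112, 119 and 82.9 at 8 h, and it stood at 194, 191 and 184 at 24 h. Its 8 h change was −1.17 (SE 0.14, adjusted p = 8.98e-09), and leaving out the first or second 8 h library gave 2 calls in place of 1.

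At 24 h 7 members fell in total reads (7.06% of all genes). They were Ncl, Nolc1, Tcof1, Polr1b (−1.14), Ddx10 (−1.17), Utp20 (−1.24) and Rrp1b (−1.09). Of Ddx10 reads 33.1% were multi-mapping, and of Tcof1 reads 11.5%. Ncl went from 2810, 3007 and 3134 CPM at 0 h to 3176, 3250 and 3018 at 8 h and 1524, 1307 and 1223 at 24 h. It was thus near its 0 h values at 8 h and below them at 24 h (−1.16, SE 0.08, adjusted p = 7e-17). Tcof1 went from 506, 516 and 501 to 241, 192 and 162 CPM at 24 h (−1.37, SE 0.12, adjusted p = 1.15e-13), and Nolc1 from 233, 265 and 305 to 119, 129 and 116 (−1.16). At the adjusted p alone 23 members were lower (17.1% of all genes) and 3 higher (15.9%). The higher ones were Npm1 (0.19), the large-subunit factor Pes1 (0.41) and Nip7 (0.67), which had 256, 285 and 249 CPM at 0 h and 457, 418 and 396 at 24 h. The median change was −0.34 in members and 0.37 in the 71 ribosomal protein genes tested. In single 24 h libraries without TMM factors it was 0.08, 0.05 and 0.01 in all genes and −0.31, −0.32 and −0.47 in members. In RBBP5–FKBP and dKO cells 0 members were called lower in total reads at any time, by edgeR or DESeq2 (0.0%, 2.1% and 1.86% of all genes at 2, 8 and 24 h in RBBP5–FKBP, and 0.0%, 0.0%, 0.00878%, 0.632% and 0.781% from 2 to 48 h in dKO cells). At an unadjusted p under 0.05, 2 to 13 were lower, depending on line and time. Without the third 8 h or the third 0 h library of RBBP5–FKBP cells 1 was called at 8 or 24 h.

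In RA, the mRNAs of the members took a smaller share of reads as DMSO-treated cells differentiated. The share was 1.63% and 1.64% of reads at 0 h, 1.56% in both libraries at 8 h, 1.03% in both at day 1, 1.07% and 1.06% at day 2, 0.840% and 0.854% at day 4 and 0.719% at day 6. The groups at day 1 and later lay below 0 h in every library. Of 51 tested members 0 were called at 8 h (3.03% of all 11415 genes lower) by edgeR or DESeq2, and 13 were lower at an unadjusted p under 0.05. Then 18 fell at day 1 (12.3%), 18 at day 2 (9.97%), 32 at day 4 (11.1%) and 35 at day 6 (14.4%), with medians of −0.69, −0.70, −1.07 and −1.16, while the median of all genes was between 0.04 and 0.10. Day 6 is 1 library, assumed to vary like the other groups. Without TMM factors 17 members were called at day 4, a count given without the share of all genes. The medians at days 4 and 6 then moved to 0.21 and 0.26 in all genes and to −0.89 and −0.96 in members. Summed naive pluripotency markers were at 6670 to 6918 CPM at 0 h, 7391 to 7491 at day 1, above 0 h, 3480 to 3504 at day 4 and 1854 at day 6, and primitive endoderm markers (4 genes) at 7.86 to 8.51 CPM at 0 h, 1358 at day 4 and 2750 at day 6. Their part in the result was not tested.

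**Figure D4:**
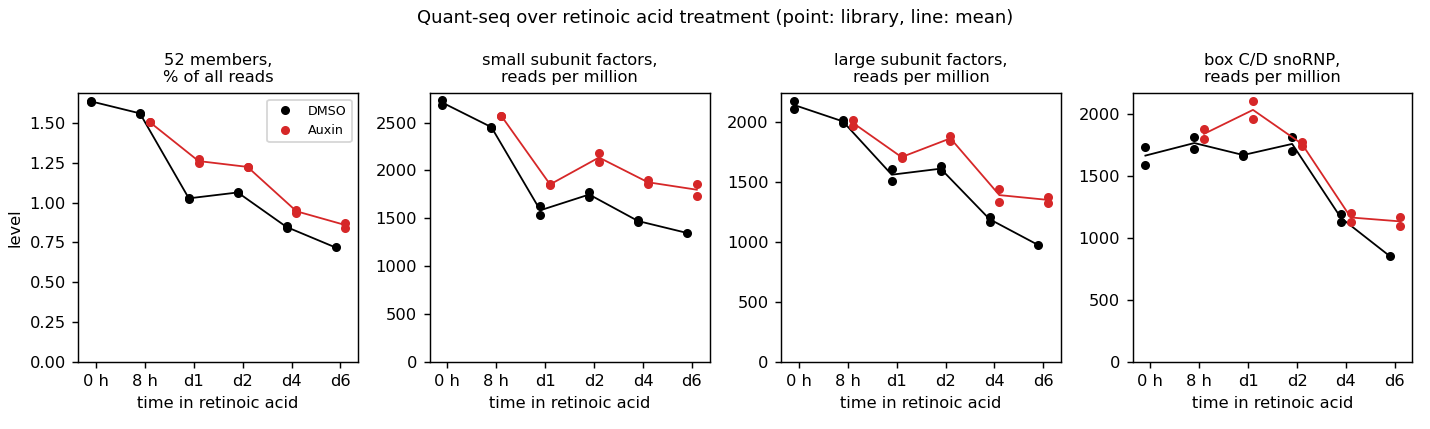
Members in Quant-seq over RA treatment: the share of all reads taken by the 52 members, and the summed CPM of small-subunit, large-subunit and box C/D members, with DMSO libraries in black and auxin libraries in red. In DMSO the share went from 1.63 and 1.64% at 0 h to 0.719% at day 6, and in that panel the auxin libraries lie above the DMSO libraries from day 1 on, while box C/D sums overlap at days 2 and 4.

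Counts by role were as follows, with no test between roles, beside 12.3% of all genes called lower at day 1 and 11.1% at day 4. At day 1 the multifunctional proteins (3 of 4 called, median −1.61) and the RNA polymerase I genes (2 of 3) had fallen, with 8 of 25 small-subunit and 5 of 14 large-subunit factors (medians −0.72 and −0.57). Of the box C/D proteins 0 of 3 were called at day 1 (median 0.09) and 1 of 3 at day 4 (median −0.54), and they summed to 1593 to 1738 CPM at 0 h and 1660 to 1680 CPM at day 1. Fbl and Nop56 are uncertain here too, as their reads were mostly multi-mapping. Nop58, with 0.328% such reads, had 393 and 365 CPM at 0 h, 391 and 410.5 at day 1 and 324 and 326 at day 4. The large-subunit factors Mrto4 (0.58) and Wdr12 (0.79) were higher at day 1 at the adjusted p alone (27.9% of all genes). Of Wdr12 reads 32.9% were multi-mapping. Mrto4 went from 156 and 149 CPM at 0 h to 239 and 216 at day 1, 83.4 and 103 at day 4 and 81.5 at day 6. At day 4, 14 of 25 small-subunit, 9 of 14 large-subunit and 3 of 3 RNA polymerase I genes were called. Of the other ribosome biogenesis factors 29 of 85 fell at day 4, with a median of −0.87, and the ribosomal protein genes had a median of −0.03 at day 4 and −0.87 at day 6.

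The largest day 4 changes among called members were in Utp20 and Rrp12 of the small subunit, Dkc1 and the U3 snoRNP protein Rrp9. Utp20 had 81.5 and 73.9 CPM at 0 h, 19.5 and 22.6 at day 1, 19.8 and 23.3 at day 4 and 45.4 at day 6. It was thus lowest between day 1 and day 4 (day 4: −2.03, SE 0.20, adjusted p = 2.5e-09). Rrp12 had 71.2 and 72.7 CPM at 0 h, 17.9 and 17.1 at day 1, 17.1 and 23.3 at day 4 and 17.6 at day 6, and remained low (day 4: −2.01, SE 0.20, adjusted p = 3.1e-09). Dkc1 was not called at day 1 and went from 464 and 496 CPM at 0 h to 135 and 155 at day 4 (−1.91, SE 0.12, adjusted p = 8.7e-13), with −0.38 at day 1. Rrp9 went from 206 and 199 to 67.1 and 54.6 CPM (−1.91, SE 0.13, adjusted p = 3.5e-12). The smallest called changes were in Wdr3 (−1.01), Nol10 (−1.02), Nop2 (−1.03) and Tbl3 (−1.03), of which Tbl3 went from 59.6 and 44.4 to 32.4 and 24.7 CPM. Ncl, the second most abundant member, went from 3374 and 3753 CPM at 0 h to 1082 and 1099 at day 1 and 1333 and 1393 at day 4 (−1.57, SE 0.09, adjusted p = 1.5e-13). Npm1, the most abundant, went more slowly, from 4363 and 4182 to 3218 and 3238 at day 1 and 2479 and 2431 at day 4.

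With auxin in RA no member was called lower than in DMSO. The members took 1.51% of reads in both auxin libraries at 8 h, 1.25% and 1.28% at day 1, 1.22% and 1.23% at day 2, 0.938% and 0.955% at day 4 and 0.875% and 0.844% at day 6. Both auxin libraries lay above the DMSO libraries from day 1 on and below them at 8 h. Npm1 and Ncl hold much of this share. Without them it was 0.794% and 0.815% in auxin and 0.806% and 0.812% in DMSO at 8 h, which overlap, and from day 1 on auxin remained above DMSO. Against DMSO of the same time 0 members were called lower at any time (0.149%, 1.54%, 2.04%, 2.88% and 5.97% of all genes from 8 h to day 6) by edgeR or DESeq2. At an unadjusted p under 0.05, 6, 0, 2 and 5 were lower and 0, 17, 14 and 10 higher from 8 h to day 4. How many of all genes pass this was not counted. Called higher were 0 at 8 h (0.0175% of all genes), Nol6 (1.05) at day 1 (0.894% of all genes), Polr1b (1.03) and Utp20 (1.07) at day 2 (2.71%), 0 at day 4 (4.42%; 1 without TMM factors), and Pwp2 (1.36) and Rrp12 (1.18) at day 6 (4.21%), where DMSO is 1 library. The day 1 call was lost without the first auxin or the second DMSO library and became 2 without the others, and the day 2 calls were lost without the second auxin or the first DMSO library. At day 6, leaving out the first auxin library gave 3 members called lower. Medians were −0.07, 0.25, 0.13, 0.13 and 0.16 from 8 h to day 6, with all genes between −0.03 and 0.01.

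The sizes of single differences varied. Utp20 had 46.5 and 40.9 CPM in auxin at day 4, above its DMSO values (0.81, SE 0.22, adjusted p = 0.011, so under the fold required). Rrp12 had 35.4 and 39.1 at day 4 in auxin (0.67, SE 0.23, adjusted p = 0.037) and 42.6 and 49.0 at day 6. Ltv1 had 88.7 and 76.5 in auxin and 45.5 and 41.0 in DMSO at day 4 (0.72, SE 0.18, adjusted p = 0.0058). At the same time Fbl (−0.49), Nop58 (−0.47), Rrp1b (−0.49) and Npm1 (−0.34) were lower at the adjusted p alone (11.5% of all genes), and 3 members were higher (7.04%), shares of 51 that do not exceed those of all genes. Noc3l, a large-subunit factor with few reads, had 9.93 and 10.1 CPM in auxin and 8.56 and 3.26 in DMSO (0.53, SE 0.47, adjusted p = 0.48). Wdr75 (0.02), Wdr43 (−0.03), Tbl3 (−0.03) and Ddx18 (−0.04) had the smallest differences. Of Ddx18 reads 73.7% were multi-mapping, so its value is uncertain. At day 1 Ncl was higher in auxin, with 1812 and 1670 CPM against 1082 and 1099 (0.69, SE 0.09, adjusted p = 2.6e-05). Summed primitive endoderm markers were at 519 CPM in both auxin libraries at day 4 and 530 to 664 at day 6, lower than in DMSO. Naive pluripotency markers were at 4928 to 4969 CPM in auxin at day 1 and 2273 to 2339 at day 4, also lower than in DMSO, and at 2013 to 2024 at day 6, higher. Fibroblast markers (4 genes) were at 45.1 to 49.6 CPM in auxin and 9.79 to 15.3 in DMSO at day 4. The part of these markers in the differences was not tested.

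Nle1, Nol11, Nop14 and Wdr12 were called lower in no comparison. Nle1 had too few reads to be tested in any. Nop14 had T>C changes in 5.74% of its reads without 4SU and in 6.71% at 0 h in dKO cells. A fall there would be hard to see. Of Wdr12 reads 32.9% were multi-mapping. Noc3l could not be tested in T>C reads of DPY30–mAID and RBBP5–FKBP cells, Nop14, Rrp12, Tbl3 and Utp18 not in those of RBBP5–FKBP cells, and Polr1b, Rrp9 and Tbl3 not in those of dKO cells.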

How the data were processed

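The authors deposited, for each library, a table of 3′-end intervals made with SlamDunk 0.3.4 per the file headers, with counts of reads and of T>C reads. The deposited CPM and conversion-rate columns are the authors' own scalings, and the CPM column was not used. Interval counts were summed per gene (46420 intervals, coordinates from GENCODE vM21, GRCm38). Genes with a mean of at least 10 counts in 1 group or more were tested with edgeR 4.0.16 (quasi-likelihood, R 4.3.3) and Benjamini-Hochberg adjustment over all genes tested, with 1 fit per line, 1 for all Quant-seq groups and 1 for the interaction. T>C library sizes were total reads times TMM factors of total reads. Called means adjusted p under 0.05 and log2 fold change beyond −1 or 1. CPM printed here carry no TMM factor. Reads mapping to more than 1 place are in the counts and were 10% or more of the reads in 13 members. These were Fbl (99.3%), Nop56 (82.3%), Ddx18 (73.7%), Npm1 (65.2%), Ddx10 (33.1%), Wdr12 (32.9%) and Rrs1 (20.5%). Nip7 (20.1%), Noc4l (14.5%), Nol9 (12.9%), Tcof1 (11.5%), Dkc1 (11.1%) and Mrto4 (11.0%) were the others.

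The fitting step was tried on simulated counts holding 200 genes of known fold change. The members and gene lists were chosen with earlier results of these data known. Named members were, per role, the one with most T>C reads at 0 h; those called lower at 8 h in both single-degron lines; the 4 most and 4 least changed among those called at RA day 4; the 4 largest and 4 smallest auxin differences at day 4; and all called higher in T>C reads. Others given were picked after their values were seen. Alternatives were DESeq2 1.42.0, T>C-based TMM, no TMM, no count filter, a replicate block and leaving out each library. Of the promoter windows, those of Fbl, Gnl2, Mak16, Nol6, Npm1, Rrp12, Rrs1, Tbl3, Tcof1, Utp6 and Wdr36 were not used here.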

Additional observations from a re-analysis of the deposited data

Results flagged for a closer look

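Nip7 was the only member, among the 51 tested, whose auxin effect on T>C reads differed between dKO and DPY30–mAID cells by edgeR's interaction term at 2, 8 or 24 h. At 24 h the difference of the log2 fold changes, dKO minus DPY30–mAID, was −1.83 (SE 0.45, unadjusted p = 0.000159, adjusted p = 0.0211 by edgeR's quasi-likelihood test). The median difference was −0.68 in all genes and −0.52 in members. Nip7 is 1 of 51 members, beside 2.38% of all genes, and the call was lost without the second 0 h or either 24 h library of dKO cells. The effect within DPY30–mAID cells was 0.88 and within dKO cells −0.97. About 20.1% of Nip7 reads mapped to more than 1 place. The cause was not tested.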

How the results depend on the processing

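The counts are of members called lower. With scaling to T>C reads the counts were 3 in place of 18 (DPY30–mAID, 8 h), 6 in place of 3 (24 h), 1 in place of 0 (24 h against 8 h), 1 in place of 4 and 1 in place of 16 (RBBP5–FKBP, 8 and 24 h), and 1 in place of 14 and 2 in place of 34 (dKO, 24 and 48 h); at 48 h in dKO cells Nop58 (0.016), Nop2 (0.054) and Wdr43 (0.11) turned to above 0. This scaling removes a change that all genes share. An unadjusted p with the fold kept gave 28, 8 and 1 in DPY30–mAID at 8 h, 24 h and 24 h against 8 h, 2 and 8 in RBBP5–FKBP at 2 and 8 h, 1 in dKO at 4 h and 6 for the interaction at 24 h. DESeq2 gave 6 in DPY30–mAID at 24 h and 1 in RBBP5–FKBP at 2 h, with the other 34 counts within 1.5 times. Without TMM, RA day 4 gave 17. Leaving out 1 library gave 9 to 32 and 0 to 2 (DPY30–mAID, 8 and 24 h), 0 to 1 (24 h against 8 h), 8 to 22 (dKO, 24 h), 0 to 1 (interaction, 24 h), 1 to 2 in total reads of DPY30–mAID at 8 h, 0 to 1 in those of RBBP5–FKBP at 8 and at 24 h, and 0 to 3 for auxin at RA day 6. Where an arm kept 1 library, it was assumed to vary like the other groups. Dropping the count filter moved no count by over 1.5 times.

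Replicate numbers did not pair the libraries (mean correlation of same-numbered deviations −0.00831 to 0.0190). With the replicate number as a block, 21 members were called in DPY30–mAID at 8 h, 15 in RBBP5–FKBP at 24 h, 34 in dKO at 48 h and 32 at RA day 4, and all 36 counts stayed within 1.5 times. T>C reads are few in dKO cells, where 2.04 to 5.27% of reads carried them, so low members such as Polr1a are imprecise.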
